A study of Mus musculus with 4 samples.

Results

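The genes described here encode the major histocompatibility complex (MHC) of the mouse and the machinery that makes, transports and loads the peptides it presents. They were taken by name: every gene whose symbol begins with H2- and 20 further named genes of peptide processing, peptide loading and MHC transcription. The deposited tables list 42 of them among 11027 genes: 23 H2 names and 19 of the 20 others. Ciita and H2-Aa were not analysed here. All 42 passed the filter on low counts, which kept 10960 genes, and 2 of them had under 1 CPM (counts scaled to a common library size) in at least 1 library. The 42 genes held 0.585% (GFP) and 0.526% (Tox2) of all counts in Th0, against 0.637% (GFP) and 0.664% (Tox2) in Tfh-like.

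The RNA came from naive CD4+ T cells of the spleen and lymph nodes of wild type C57BL/6 mice aged 7 to 8 weeks. The cells were activated and infected in neutral conditions, either with a virus that encodes Tox2 beside GFP or with an empty one that encodes GFP alone, and GFP+ cells were sorted and cultured. IL-2, IL-4 and IFN-gamma were neutralised by antibodies in every culture, and IL-6 was added to the Tfh-like ones, so a block of IFN-gamma was common to all 4 groups. Tox2 is a DNA-binding protein of the HMG-box family, and the study asked how it acts in the differentiation of T follicular helper (Tfh) cells. Each of the 4 groups is 1 library, so no difference below has a replicate check. Whether the cells of a library were pooled from several mice is not given in the sources used here.

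MHC class I molecules are found on nearly all nucleated cells and show peptides of the cell's own proteins to CD8+ T cells. The proteasome cuts the peptides, the TAP transporter carries them into the endoplasmic reticulum, and a loading complex fits them into a heavy chain paired with beta-2 microglobulin (B2m). MHC class II molecules show peptides from the endosomal pathway to CD4+ T cells. They are made mainly by B cells, dendritic cells and macrophages, and mouse T cells are generally held to make little of them. The class I genes are turned on in large part through Nlrc5 and interferon-driven factors, the class II genes through Ciita, which docks on the RFX, CREB and NF-Y proteins bound to their promoters.

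Total counts were 13015283 to 13673774 per library, and mitochondrial genes took 1.99% to 2.45% of them. The virus was visible in the counts of Tox2 itself: 144 (GFP) and 35297 (Tox2) in Th0, against 851 (GFP) and 32246 (Tox2) in Tfh-like. Of 10 CD4 T cell markers 9 were listed, with summed levels of 5646 to 6142 CPM. Of 12 B cell markers 3 were listed (Bank1, Cd79a and Ebf1), with summed CPM of 4.91 (GFP) and 11.7 (Tox2) in Th0, against 30.9 (GFP) and 31.8 (Tox2) in Tfh-like. Most of the latter sum was Ebf1, and Cd79a, a defining B cell receptor chain, had 19, 24, 10 and 13 counts in the same order. The defining B cell genes Ms4a1 and Igkc were not analysed here. Of 8 dendritic cell markers 3 were listed: Xcr1 with 1 to 21 counts, Zbtb46 with 25 to 45, and Ccr7, which T cells also express and which made up most of the summed 558 to 1291 CPM. Of 8 macrophage markers 3 were listed with summed CPM between 8.2 and 13.7. Of 2 CD8 T cell markers Cd8b1 was listed, with 127 to 206 counts, and of 3 NK cell markers 0. Epcam, an epithelial marker, was counted 110 (GFP) and 274 (Tox2) times in Th0, against 89 and 174 in Tfh-like; it thus moved with Tox2, and its part in the Tox2 results below was not tested.

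**Figure D1:**
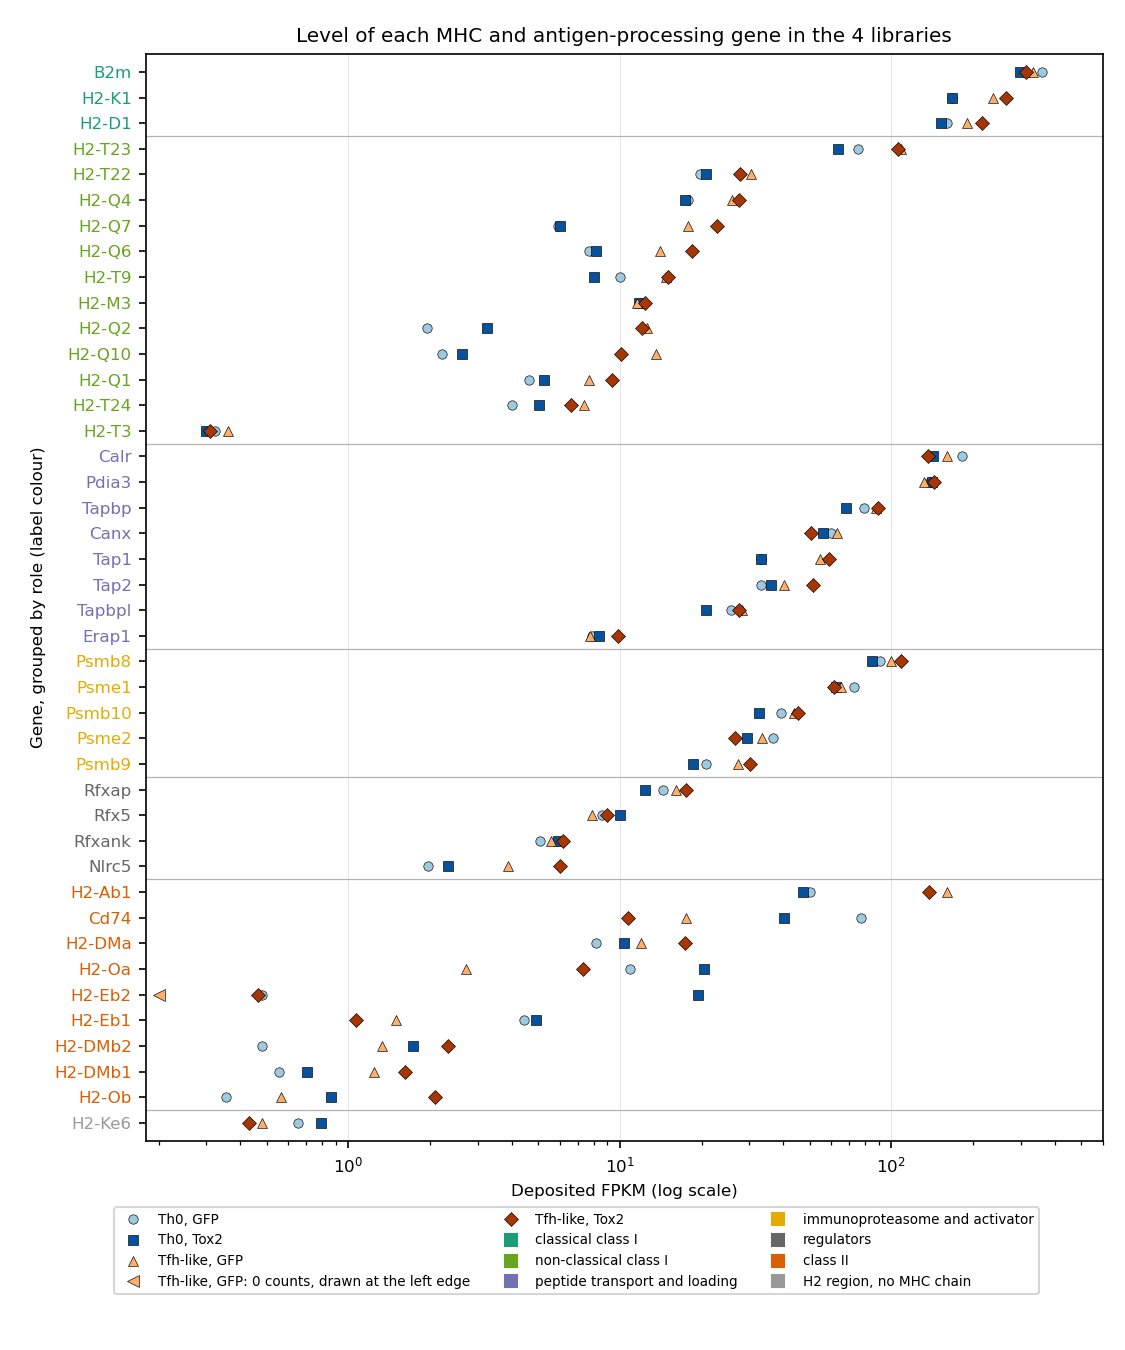
Deposited FPKM (a level per gene length and library size, log axis) of each of the 42 genes, 1 point per library, with gene labels coloured by role. B2m has the highest level in all 4 libraries; H2-Eb2 runs from 0 in Tfh-like with GFP to 19.4 in Th0 with Tox2.

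On a scale corrected for gene length, the classical class I chains and several loading factors stood far above most class II genes, while non-classical class I chains reached down to H2-T3 at 0.298 to 0.36 FPKM. B2m had the highest FPKM of the 42 genes in every library, from 299 in Th0 with Tox2 to 358 in Th0 with GFP. Among the next levels were those of the heavy chains H2-K1, at 167 to 265 FPKM, and H2-D1, at 152 to 216 FPKM, and of the chaperones Calr, at 136 to 182, and Pdia3, at 132 to 144. Psmb8, a catalytic subunit of the immunoproteasome, had 84.9 to 109 FPKM. Among class II genes H2-Ab1 ranked 12th, 11th, 5th and 5th of the 42 in Th0 with GFP, Th0 with Tox2, Tfh-like with GFP and Tfh-like with Tox2. Cd74, which encodes the invariant chain that holds new class II molecules until they reach the endosome, ranked 8th, 12th, 21st and 27th in that order. H2-Ab1 thus had 0.647 times the FPKM of Cd74 in Th0 with GFP, and 1.17, 9.05 and 12.9 times in the other 3 libraries.

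Each gene was tested in 2 ways. An additive fit of virus and culture over all 4 libraries gave a Tox2 effect and a Tfh-like effect with a standard error (SE), from the quasi-likelihood test of edgeR, adjusted over 10960 genes by the Benjamini-Hochberg method, with 0.05 as the limit. The fit leaves 1 residual degree of freedom, so its p-values weigh each effect against the departure of the 4 libraries from additivity and against the spread shared across genes, not against replicate cultures. "Rose" and "fell" are used for genes that passed it. Each pair of libraries was also described by a log2 fold of scaled CPM with an exact 95% interval for counting error only, and called 2-fold apart when the fold was at least 2 and the interval excluded no change. The 4 pairs reuse the same 4 libraries. In bulk RNA, fewer cells that express a gene and less RNA per cell cannot be told apart.

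Tox2 moved 4 of the 42 genes, all of them class II, while the Tfh-like culture moved 20, in both classes. Over both cultures 3 genes rose with Tox2 (H2-Eb2, H2-Oa and H2-Ob) and 1 fell (Cd74). That is 7.14% and 2.38% of the 42, where 4.07% of all tested genes rose and 2.74% fell. The share that fell with Tox2 was close to that of all genes, and the higher share that rose rests on 3 genes. Over both viruses 16 rose in the Tfh-like culture and 4 fell, or 38.1% and 9.52%, where 14.3% of all tested genes rose and 9.96% fell. The share that rose was above that of all genes and the share that fell was near it. With the sum of counts as the only scaling the split over all genes was 1500 higher and 1649 lower, against 1564 and 1092, and that of the 42 genes was 16 and 4, with H2-Ob gained and Tap2 lost. The median Tfh-like effect was 0.34 (log2) over the 42 genes and -0.01 over all genes, and the median Tox2 effect was 0.03 and 0.00.

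**Figure D2:**
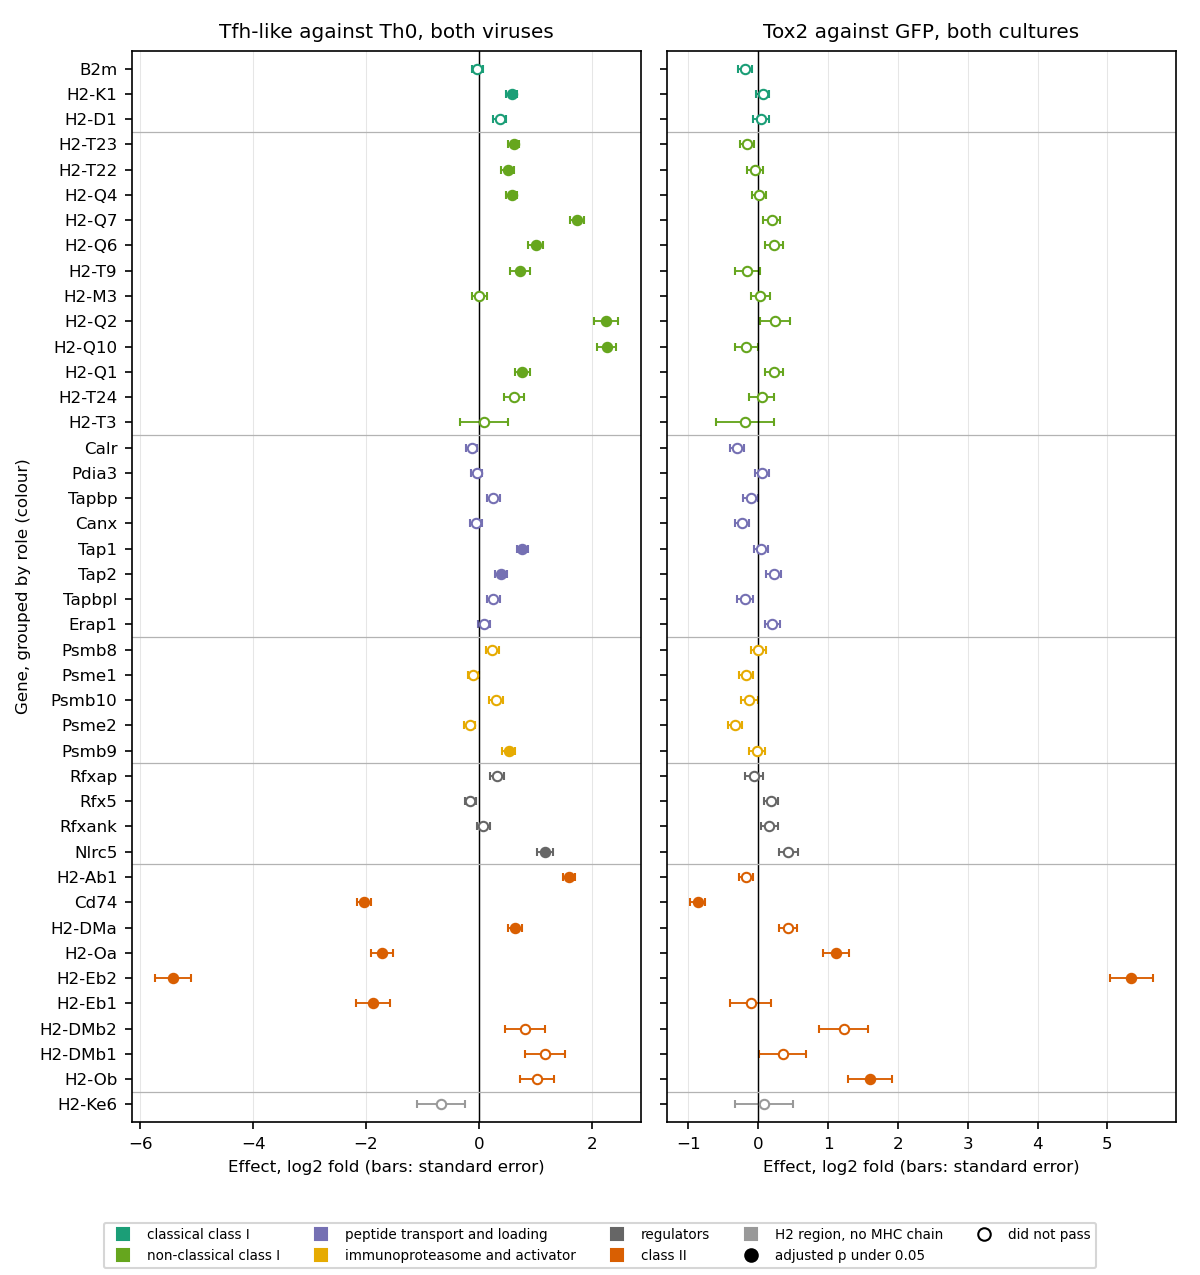
Tox2 effect and Tfh-like effect (log2 fold, bars show 1 standard error) of each of the 42 genes in the additive fit over 4 libraries, grouped by role. For Tox2 the genes that passed lie in class II; for the Tfh-like culture 16 of 42 rose and 4 fell.

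Class II genes were the group in which both factors were seen, and they did not move together. The 9 listed were the chains H2-Ab1, H2-Eb1 and H2-Eb2, the peptide exchange chains H2-DMa, H2-DMb1 and H2-DMb2, the chains H2-Oa and H2-Ob of their inhibitor H2-O, and Cd74. Of these 9, 3 (33.3%) rose with Tox2 and 1 (11.1%) fell, where 4.07% and 2.74% of all genes did. In the Tfh-like culture 2 (22.2%) rose and 4 (44.4%) fell, where 14.3% and 9.96% of all genes did. The median Tox2 effect over the 9 was 0.43 and the median Tfh-like effect was 0.64, and both medians are the value of H2-DMa.

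H2-Eb2, another beta chain gene of the H2-E locus, had the widest range. C57BL/6 mice carry no functional H2-Ea chain, the partner of H2-E beta chains. H2-Eb2 (chr17:34325665-34341412, + strand, build GRCm38) was counted 18 times (GFP) and 738 (Tox2) in Th0, against 0 (GFP) and 17 (Tox2) in Tfh-like. Th0 with Tox2 thus stood apart from the other 3 libraries, of which Tfh-like with GFP was the lowest. In Th0 the level was 39.7-fold higher with Tox2 (log2 fold 5.16, 95% interval 4.64 to 6.07). In the Tfh-like culture it was 5.53-fold higher when 3 counts were taken for the library at 0. The 95% interval of that log2 fold began at 2.01. Between cultures with GFP it was 5.83-fold lower in Tfh-like when 3 counts were taken in the same way, and the interval ended at log2 -2.09. With Tox2 it was 41.8-fold lower in Tfh-like than in Th0. By edgeR's quasi-likelihood test H2-Eb2 rose with Tox2 (log2 5.34, SE 0.31, adjusted p = 0.00166) and fell in the Tfh-like culture (log2 -5.42, SE 0.32, adjusted p = 0.000202). Both sizes depend on how the 0 is treated and are no bounds.

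H2-Eb1, its neighbour on chr17:34305867-34316674, had no Tox2 difference beyond counting error. Its counts were 89 (GFP) and 100 (Tox2) in Th0, against 29 (GFP) and 21 (Tox2) in Tfh-like. Both Th0 libraries lay above both Tfh-like libraries. The log2 fold with Tox2 was 0.12 in Th0 (-0.31 to 0.55) and -0.46 in Tfh-like (-1.38 to 0.36). H2-Eb1 fell in the Tfh-like culture by edgeR's quasi-likelihood test (log2 -1.87, SE 0.30, adjusted p = 0.00628), and its Tox2 effect was -0.11 (SE 0.29, adjusted p = 0.844). The FPKM of H2-Eb2 was 0.108 times that of H2-Eb1 in Th0 with GFP, 3.96 times in Th0 with Tox2 and 0.434 times in Tfh-like with Tox2. The transcripts of the 2 genes share no stretch of 50 bases with any other annotated gene.

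The H2-O chains, which slow peptide exchange by H2-DM, both rose with Tox2. H2-Oa (chr17:34092340-34095234, + strand) had 243 counts (GFP) and 465 (Tox2) in Th0, against 58 (GFP) and 159 (Tox2) in Tfh-like. Within each culture the Tox2 library was the higher, and both Th0 libraries were above both Tfh-like ones. The log2 fold with Tox2 was 0.88 in Th0 (0.66 to 1.12) and 1.39 in Tfh-like (0.98 to 1.88). H2-Oa rose with Tox2 (edgeR quasi-likelihood, log2 1.11, SE 0.19, adjusted p = 0.0258) and fell in the Tfh-like culture (log2 -1.72, SE 0.19, adjusted p = 0.00172). In the annotation 22.8% of its exon bases are overlapped by BC051537 on the other strand, and the strand setting of the counting is not given in the sources used here, so reads of the 2 cannot be told apart there.

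H2-Ob (chr17:34238903-34254414, + strand) had 19 counts (GFP) and 47 (Tox2) in Th0, against 29 (GFP) and 109 (Tox2) in Tfh-like. The 2 libraries with Tox2 were the 2 highest. The log2 fold with Tox2 was 1.18 in Th0 (0.46 to 2.11) and 1.81 in Tfh-like (1.27 to 2.52). H2-Ob rose with Tox2 (edgeR quasi-likelihood, log2 1.60, SE 0.31, adjusted p = 0.0342), but DESeq2 gave an adjusted p of 0.162 and removal of each library's trend with gene length gave 0.0512 for the same effect. Its Tfh-like effect was 1.03 (SE 0.30, adjusted p = 0.0522), against -1.72 for H2-Oa, so the FPKM ratio of H2-Oa to H2-Ob went from 30.7 (GFP) and 23.7 (Tox2) in Th0 to 4.8 (GFP) and 3.5 (Tox2) in Tfh-like. The 2 chains of H2-O thus rose together with Tox2, while their culture effects had opposite signs.

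The promoters of the 2 H2-E beta genes and of the 2 H2-O genes are shown here because the genes of each pair differ in their Tox2 or culture effects. Each is the 150 bases before the RefSeq start (GRCm38.p6, + strand), at chr17:34325525-34325674 for H2-Eb2, chr17:34305717-34305866 for H2-Eb1, chr17:34092229-34092378 for H2-Oa and chr17:34238755-34238904 for H2-Ob. Capitals mark TGATG, letters found in the X2 box of class II promoters, and ATTGG or its reverse CCAAT, the core of the Y box that NF-Y binds.
H2-Eb2: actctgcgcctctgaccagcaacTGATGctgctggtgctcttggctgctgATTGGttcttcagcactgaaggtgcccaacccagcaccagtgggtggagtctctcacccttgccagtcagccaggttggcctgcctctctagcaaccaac
H2-Eb1: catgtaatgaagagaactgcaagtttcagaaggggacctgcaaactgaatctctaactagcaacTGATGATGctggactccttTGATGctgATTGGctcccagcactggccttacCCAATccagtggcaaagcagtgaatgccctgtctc
H2-Oa: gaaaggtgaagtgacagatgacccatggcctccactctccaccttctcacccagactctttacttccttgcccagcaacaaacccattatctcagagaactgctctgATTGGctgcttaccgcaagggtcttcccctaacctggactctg
H2-Ob: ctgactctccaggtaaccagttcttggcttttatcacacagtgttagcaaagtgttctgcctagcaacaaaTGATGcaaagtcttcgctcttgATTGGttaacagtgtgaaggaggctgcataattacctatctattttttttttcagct
In H2-Eb2 TGATG starts 127 bases and ATTGG 100 bases before the gene's start, 27 bases apart. In H2-Eb1 2 of its copies of TGATG start at 86 and 83 bases, 27 and 24 bases before an ATTGG at 59, and in H2-Ob the pair stands at 79 and 57 bases, 22 apart. H2-Oa holds ATTGG at 43 bases, and the window printed holds no TGATG before it. The pair of letters 27 bases apart was thus present in both H2-E beta genes, and in both that TGATG directly follows AGCAAC. The H2-Eb1 copy 24 bases before ATTGG has no match in H2-Eb2, which reads TGCTG at that place. The letters alone do not show which TGATG belongs to an X2 box.

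RefSeq promoters of 300 bases (250 before to 50 after the start) were used for 33 of the 42 genes. Chromosome 18, which holds Cd74, was left out of the search of the 42 genes, so Cd74 is not among the 33. Searched on both strands, TGATG occurs in 21 of the 33 and in 39.3% of 32851 mouse promoters, and ATTGG in 26 of the 33 and in 37.4%. The Y box form CTGATTGG, which contains ATTGG, occurs in 11 of the 33 and in 4.1% of all promoters. TGATG starting 22 to 28 bases before ATTGG on the same strand, a spacing chosen after these sequences were seen, occurs in 10 of the 33 (H2-D1, H2-DMb1, H2-DMb2, H2-Eb1, H2-Eb2, H2-M3, H2-Ob, H2-Q4, H2-Q6 and H2-Q7) and in 0.514% of all promoters. The interferon element GAAANNGAA occurs in 5 of the 33 (B2m, Erap1, H2-T22, H2-T23 and Psme1) and in 8.56% of all promoters. A match of letters is a description and does not show that a factor binds there.

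Cd74 fell with both factors. It had 1855 counts (GFP) and 977 (Tox2) in Th0, against 405 (GFP) and 250 (Tox2) in Tfh-like. In both cultures the Tox2 library was the lower, and with either virus the Tfh-like library was the lower. With Tox2 the level was 1.96-fold lower in Th0 (log2 -0.97, -1.09 to -0.86) and 1.66-fold lower in Tfh-like (log2 -0.73, -0.97 to -0.50). In the Tfh-like culture it was 4.45-fold lower with GFP and 3.77-fold lower with Tox2. By edgeR's quasi-likelihood test the Tox2 effect was -0.87 (SE 0.11, adjusted p = 0.0125) and the Tfh-like effect -2.04 (SE 0.12, adjusted p = 0.000197).

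H2-Ab1, the beta chain of H2-A, the one class II molecule that C57BL/6 mice display, went the other way with culture. H2-Ab1 (chr17:34257689-34269419, + strand) had 1394 counts (GFP) and 1331 (Tox2) in Th0, against 4256 (GFP) and 3750 (Tox2) in Tfh-like. Both Tfh-like libraries were above both Th0 libraries, 3.14-fold with GFP (log2 1.65, 1.56 to 1.74) and 2.92-fold with Tox2 (log2 1.55, 1.46 to 1.64). It rose in the Tfh-like culture (edgeR quasi-likelihood, log2 1.60, SE 0.10, adjusted p = 0.000265), and its Tox2 effect was -0.17 (adjusted p = 0.331). The FPKM of H2-Eb1 was 0.0883 and 0.104 times that of H2-Ab1 in the 2 Th0 libraries with GFP and Tox2, and 0.00942 and 0.00774 times in the 2 Tfh-like libraries. The B cell marker sum was also higher in the Tfh-like libraries than in Th0 with GFP, through Ebf1 with 20, 118, 380 and 385 counts, while Cd79a was not higher there; their part in the result was not tested.

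The 3 H2-DM genes lay higher with both factors, and 1 of them passed, for the culture. H2-DMa had 228, 295, 320 and 475 counts in Th0 with GFP, Th0 with Tox2, Tfh-like with GFP and Tfh-like with Tox2, and it rose in the Tfh-like culture (edgeR quasi-likelihood, log2 0.64, SE 0.13, adjusted p = 0.017), but did not pass by DESeq2 (adjusted p = 0.112). Its Tox2 effect was 0.43 (SE 0.13, adjusted p = 0.101), and 10.4% of its exon bases are overlapped by Brd2 on the other strand. H2-DMb1 had 14, 18, 30 and 40 counts in that order and H2-DMb2 had 14, 51, 37 and 66. For both, Th0 with GFP was the lowest library and Tfh-like with Tox2 the highest. H2-DMb2 was 2-fold apart with Tox2 in Th0 (log2 1.68, 0.94 to 2.79) and between cultures with GFP (1.33, 0.52 to 2.45), and its Tox2 effect was 1.22 (SE 0.35, adjusted p = 0.0877). The 2 DMb genes share 22.7% and 25.9% of their 50-base stretches with other genes, so their counts are uncertain.

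**Figure D3:**
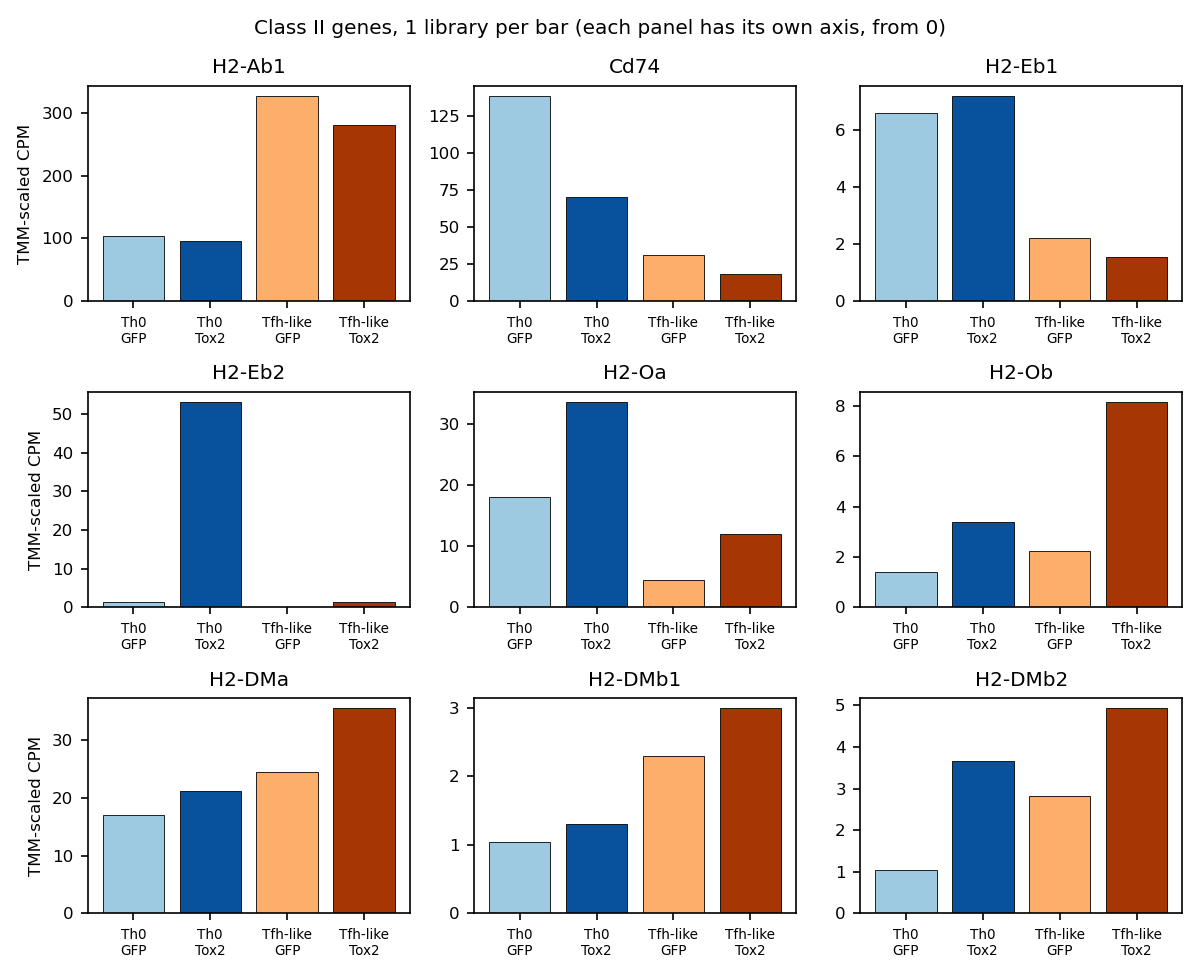
Scaled CPM of each class II gene and Cd74, 1 bar per library, each panel with its own axis from 0. H2-Eb2 stands out in Th0 with Tox2 (53.1), H2-Oa is higher with Tox2 in each culture, Cd74 is lower in the order of the bars, and H2-Ab1 is higher in both Tfh-like libraries.

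Among class I and processing genes there were calls for the culture and none for Tox2. Of the 33 genes outside class II, 0 passed for Tox2 by edgeR's quasi-likelihood test and 0 by DESeq2. By edgeR 4.07% of all tested genes rose with Tox2 and 2.74% fell, so 0 of 33 does not set these genes apart. Of the 33, 3 (Calr, Nlrc5 and Psme2) had an unadjusted p under 0.05 by edgeR, as did 27.4% of all tested genes. Of the 3 classical genes H2-K1, H2-D1 and B2m, 1 (33.3%, against 14.3% of all genes) rose in the Tfh-like culture. H2-K1 (chr17:33996017-34000347, - strand) had 550 CPM (GFP) and 540 CPM (Tox2) in Th0, against 774 and 857 CPM in Tfh-like (the GFP library is named first in this and the following pairs of values). It rose with culture (edgeR quasi-likelihood, log2 0.58, SE 0.10, adjusted p = 0.00892). H2-D1 had 522 and 487 CPM in Th0 and 613 and 692 in Tfh-like, also higher in both Tfh-like libraries, with an effect of 0.37 (SE 0.11, adjusted p = 0.0534). B2m, the shared light chain on chr2:122147686-122153083, had 389 and 320 CPM in Th0 and 356 and 334 in Tfh-like, so the cultures overlapped (effect -0.03, adjusted p = 0.847). The FPKM of H2-K1 relative to B2m was 0.466, 0.557, 0.717 and 0.847 in Th0 with GFP, Th0 with Tox2, Tfh-like with GFP and Tfh-like with Tox2, and that of H2-D1 was 0.447, 0.508, 0.573 and 0.692.

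Most of the non-classical class I genes rose with the culture. Of 12, 9 (75%, against 14.3% of all genes) rose in the Tfh-like culture by edgeR's quasi-likelihood test, and 0 fell. All 12 had an effect above 0, with a median of 0.67. Summed, they had 550 CPM (GFP) and 512 CPM (Tox2) in Th0, against 933 and 931 in Tfh-like. H2-Q10, a secreted chain known from liver, had 12.2 and 14.2 CPM in Th0 and 74 and 54.3 in Tfh-like (log2 effect 2.27, SE 0.17, adjusted p = 0.000489). H2-Q2 had 5.36 and 8.78 CPM in Th0 and 34.3 and 32.7 in Tfh-like (2.26, SE 0.21, adjusted p = 0.000965). With GFP these 2 genes were 6.06-fold and 6.41-fold higher in Tfh-like, and with Tox2 3.83-fold and 3.73-fold. The Tfh-like libraries lay above both Th0 libraries in each case.

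H2-Q7 and H2-Q6 encode Qa-2, a class I molecule held in the membrane by a lipid anchor. H2-Q7 (chr17:35439155-35443773, + strand) had 31.9 CPM with either virus in Th0, then 94.6 with GFP and 121 with Tox2 in Tfh-like, and rose with culture (edgeR quasi-likelihood, log2 1.74, SE 0.12, adjusted p = 0.000397). H2-Q6 had 20.4 and 21.2 CPM in Th0 and 36.8 and 47.7 in Tfh-like (1.01, SE 0.13, adjusted p = 0.00309). In the promoters of both, TGATG starts 27 bases before ATTGG, as in H2-Eb2. H2-T23 encodes Qa-1, a ligand of NKG2 receptors. It had 274 and 229 CPM in Th0 and 394 and 378 in Tfh-like, and rose with culture (0.62, SE 0.10, adjusted p = 0.00784).

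The other 4 that rose in the Tfh-like culture had effects of 0.77 for H2-Q1, 0.58 for H2-Q4, 0.51 for H2-T22, a ligand of gamma-delta T cell receptors, and 0.73 for H2-T9 (adjusted p by edgeR's quasi-likelihood test between 0.0081 and 0.0312). H2-T9, which has no entry in the annotation used, did not pass by DESeq2 (adjusted p = 0.17). H2-Q1 had 16.7 and 18.7 CPM in Th0 and 27.4 and 33.2 in Tfh-like, and H2-Q4 had 58.8 and 56 in Th0 and 83.5 and 88.2 in Tfh-like. H2-T22 had 85 and 87.8 CPM in Th0 and 129 and 117 in Tfh-like, and H2-T9 had 11.8 and 9.21 in Th0 and 17.2 and 17.3 in Tfh-like. In all 4 both Tfh-like libraries were above both Th0 libraries. The 3 that did not pass were H2-T24 (effect 0.62, adjusted p = 0.0516), H2-T3 (0.09, with 14 to 16 counts per library) and H2-M3, which binds formylated peptides of bacteria and mitochondria (0.01, at 20.8 to 22.2 CPM).

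Reads of these genes are hard to assign, because the H2-K, H2-D, H2-Q and H2-T genes are near copies. The share of 50-base stretches found in another annotated gene was 53.5% for H2-T22, 36.4% for H2-Q4, 35% for H2-Q6, 26.5% for H2-Q7, 19.1% for H2-Q10, 16.1% for H2-Q2 and 9.63% for H2-K1. How reads that fit several genes were counted is not given in the sources used here, so these members are uncertain, and they are not independent observations of one another. The 21 genes that share over 10% of their stretches, or have no entry in the annotation, were then left out. Of the remaining 21, 6 rose in the Tfh-like culture (H2-Ab1, H2-DMa, H2-K1, Nlrc5, Psmb9 and Tap1). In the same culture 3 of them fell (Cd74, H2-Eb1 and H2-Eb2). Over all tested genes 14.3% rose and 9.96% fell. Of the non-classical genes the shorter list kept H2-M3, H2-T24 and H2-T3, none of which passed. That limit was chosen after seeing the data.

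Of 8 transport and loading genes, 2 (25%) rose in the Tfh-like culture and 0 fell, where 14.3% of all genes rose and 9.96% fell. The 2 were Tap1 and Tap2, which together form the transporter. Tap1 (chr17:34187553-34197225, + strand) had 230 and 224 CPM in Th0 and 374 and 402 in Tfh-like (edgeR quasi-likelihood, log2 0.77, SE 0.10, adjusted p = 0.0031). Tap2 had 158 and 169 CPM in Th0 and 190 and 242 in Tfh-like (0.39, SE 0.11, adjusted p = 0.043), but did not pass by DESeq2 (adjusted p = 0.101) or with the sum of counts as the only scaling (0.0613). For both genes the 2 Tfh-like libraries were the 2 highest. In the annotation 18.5% of the exon bases of Tap2 are overlapped by Gm15821 and Gm20496 on the other strand, and the strand setting is not given. Tapasin (Tapbp), which bridges the transporter and the heavy chain, and its relative Tapbpl both had an effect of 0.26, and neither passed. The general chaperones and the trimming enzyme also did not pass: Calr had an effect of -0.13, Canx -0.05, Pdia3 -0.04 and Erap1 0.09. Calr had 663, 512, 580 and 487 CPM in Th0 with GFP, Th0 with Tox2, Tfh-like with GFP and Tfh-like with Tox2, and Pdia3 had 552, 549, 516 and 559.

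The immunoproteasome has 3 subunits that replace catalytic subunits of the standard proteasome. Of the 5 genes of the immunoproteasome and its activator, 1 (20%) rose in the Tfh-like culture and 0 fell. Over all genes 14.3% rose and 9.96% fell, so the share that rose was near that of all genes. Psmb9, which lies head to head with Tap1, had 96.4 and 84.6 CPM in Th0 and 124 and 137 in Tfh-like (edgeR quasi-likelihood, log2 0.53, SE 0.12, adjusted p = 0.0223). Tap1, which also rose, overlaps 5.79% of the exon bases of Psmb9 on the other strand, and the strand setting is not given. Psmb8 had 313 and 288 CPM in Th0 and 341 and 369 in Tfh-like (0.24, adjusted p = 0.155), and Psmb10 had 85 and 68.9 in Th0 and 93.1 and 95.6 in Tfh-like (0.30, adjusted p = 0.122). The activator subunits Psme1 and Psme2 had effects of -0.10 and -0.16. Against the standard subunit that each replaces, FPKM ratios were highest in Tfh-like with Tox2, where the standard subunits were lower than in Th0 with GFP. Between these 2 libraries Psmb5 went from 89.7 to 61.6 FPKM, Psmb6 from 66.9 to 50.2 and Psmb7 from 23.5 to 19.8. The Tox2 effects of Psmb8, Psmb9 and Psmb10 themselves were -0.00, -0.02 and -0.13, and none passed. Psmb8 to Psmb5 was 1.01, 1.26, 1.28 and 1.77 in Th0 with GFP, Th0 with Tox2, Tfh-like with GFP and Tfh-like with Tox2. In the same order Psmb9 to Psmb6 was 0.311, 0.344, 0.493 and 0.599, and Psmb10 to Psmb7 was 1.68, 1.67, 1.93 and 2.28. Of the 17 genes of the standard proteasome and its activators, 0 rose and 1 fell with Tox2 (Pomp, edgeR quasi-likelihood, log2 -0.49, adjusted p = 0.0399). With culture 0 rose and 1 fell (Psme3, edgeR quasi-likelihood, -0.34, adjusted p = 0.0472). Over all genes 4.07% rose and 2.74% fell with Tox2, and 14.3% and 9.96% with culture.

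Among the regulators, Nlrc5 rose with the culture. Nlrc5, the transactivator of class I genes (on chromosome 8), had 285 counts (GFP) and 340 (Tox2) in Th0, against 537 (GFP) and 849 (Tox2) in Tfh-like. Both Tfh-like libraries were above both Th0 ones, 1.94-fold with GFP (log2 0.95, 0.75 to 1.17) and 2.59-fold with Tox2 (1.37, 1.19 to 1.56). By edgeR's quasi-likelihood test its culture effect was 1.17 (SE 0.14, adjusted p = 0.00209) and its Tox2 effect 0.43 (SE 0.14, adjusted p = 0.106). The 3 subunits of the RFX complex did not pass for either factor, with culture effects of -0.15 for Rfx5, 0.08 for Rfxank and 0.32 for Rfxap, and Tox2 effects of 0.18, 0.16 and -0.06.

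The remaining name, H2-Ke6, encodes a steroid dehydrogenase and no MHC chain. It had 17, 21, 12 and 11 counts, passed for neither factor, and shares 70.5% of its 50-base stretches with another annotated gene.

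Of 22 other regulators of MHC transcription, 9 (40.9%) rose and 4 (18.2%) fell in the Tfh-like culture, where 14.3% and 9.96% of all genes did. With Tox2 0 rose and 1 (4.55%) fell, where 4.07% and 2.74% of all genes did. The median culture effect over the 22 was 0.33, against -0.01 for all genes. Among those that rose were genes of interferon signalling. Irf1, which binds interferon response elements of class I promoters, had 494, 560, 1137 and 1086 counts in Th0 with GFP, Th0 with Tox2, Tfh-like with GFP and Tfh-like with Tox2 (edgeR quasi-likelihood, log2 1.13, adjusted p = 0.00116). Socs1, an inhibitor of cytokine signalling, had 567, 499, 1589 and 1980 counts (1.78, adjusted p = 0.000611), and Jak2 had an effect of 1.21 (adjusted p = 0.000936). Stat2, Irf9, Ifngr1, Nfyb and Ep300 also rose, and Irf8, Nfya, Crebbp and Nfkb1 fell. Zbtb32, known as a repressor of Ciita, fell with Tox2 (log2 -0.95, adjusted p = 0.0203), with 178 and 106 CPM with GFP and 76.5 and 66.1 with Tox2 in Th0 and Tfh-like.

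Genes of endosomal processing, in which class II molecules meet their peptides, had culture effects of both signs. Of 19 genes 13 were tested. Of these 3 (23.1%, against 14.3% of all genes) rose and 0 fell with culture, so the higher share rests on 3 genes. In all 9 had an effect above 0, the median was 0.20, and the lowest effect was -0.59 for Cd1d1, which did not pass. Ctss and Cst3 were lower in Tfh-like with GFP (log2 -0.55 and -0.39) and higher with Tox2 (0.39 and 0.17). Those that rose were Ctsb (edgeR quasi-likelihood, log2 0.86, adjusted p = 0.00187), Ctsd (0.76, adjusted p = 0.0033) and Ctsc (0.56, adjusted p = 0.0143). With Tox2 1 rose (7.69%, against 4.07% of all genes), the cathepsin Ctsl (edgeR quasi-likelihood, log2 1.05, adjusted p = 0.0395). It had 91, 161, 98 and 248 counts in Th0 with GFP, Th0 with Tox2, Tfh-like with GFP and Tfh-like with Tox2. Lgmn, a protease of the same compartment, had 85, 112, 76 and 211 counts and was 2-fold apart with Tox2 in Tfh-like. Of 17 chaperones and peptidases of the endoplasmic reticulum and cytosol, 0 rose and 1 (5.88%) fell with Tox2. This was Hsp90b1 (edgeR quasi-likelihood, log2 -0.59, adjusted p = 0.0294). With culture 1 (5.88%) rose, Uggt1 (edgeR quasi-likelihood, 0.37, adjusted p = 0.0451), and 1 (5.88%) fell, Hspa5 (-0.36, adjusted p = 0.0398). Over all genes 4.07% rose and 2.74% fell with Tox2, and 14.3% and 9.96% with culture.

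Read pair by pair, fewer of the 42 genes were 2-fold apart with Tox2 than between cultures, as was so over all genes. With Tox2 in Th0, 3 of 42 were higher (H2-DMb2, H2-Eb2 and H2-Ob) and 0 lower, where 3.18% of all genes were higher and 1.56% lower. With Tox2 in Tfh-like, 3 were higher (H2-Eb2, H2-Oa and H2-Ob) and 0 lower, where 2.86% of all genes were higher and 1.9% lower. Between cultures with GFP, 6 were higher in Tfh-like (H2-Ab1, H2-DMb1, H2-DMb2, H2-Q10, H2-Q2 and H2-Q7) and 4 lower (Cd74, H2-Eb1, H2-Eb2 and H2-Oa), where 7.78% of all genes were higher and 3.11% lower. Between cultures with Tox2, 8 were higher (H2-Ab1, H2-DMb1, H2-Ob, H2-Q10, H2-Q2, H2-Q6, H2-Q7 and Nlrc5) and the same 4 lower, where 6.56% of all genes were higher and 2.86% lower. The median log2 fold of the 42 genes was -0.02 and 0.10 with Tox2 in Th0 and Tfh-like, and 0.19 and 0.41 between cultures with GFP and Tox2.

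The Tox2 fold itself was compared between the 2 cultures. None of the 42 genes had Tox2 folds that were 2-fold different with an interval excluding 0, where 3.73% of all genes did. For H2-Eb2 the difference (Tfh-like minus Th0) was -1.91 (log2, -4.11 to 0.29). It rests on a library at 0 and so on the prior count: with a prior count of 10 in the folds it was -3.26 (-5.45 to -1.06), which would make 1 of 42. The intervals of these differences are approximate, not exact. Their width comes from the 4 counts with a prior count of 2 in every alternative, also in the one with 10. For H2-DMb2 the difference was -0.91 (-1.90 to 0.07), or -1.02 (-2.01 to -0.04) with the length trend removed, which would also make 1, and for H2-Oa 0.51 (0.02 to 0.99). For the 33 genes outside class II smaller differences exceeded counting error: H2-Q2 had -0.77 (-1.22 to -0.31), H2-Q10 -0.66 (-0.99 to -0.33) and Nlrc5 0.42 (0.14 to 0.69). The median difference over the 42 genes was 0.15, and -0.00 over all genes. With 1 library per group these intervals hold no variation between cultures, so they do not test whether Tox2 acts differently in Th0 and Tfh-like cells.

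**Figure D4:**
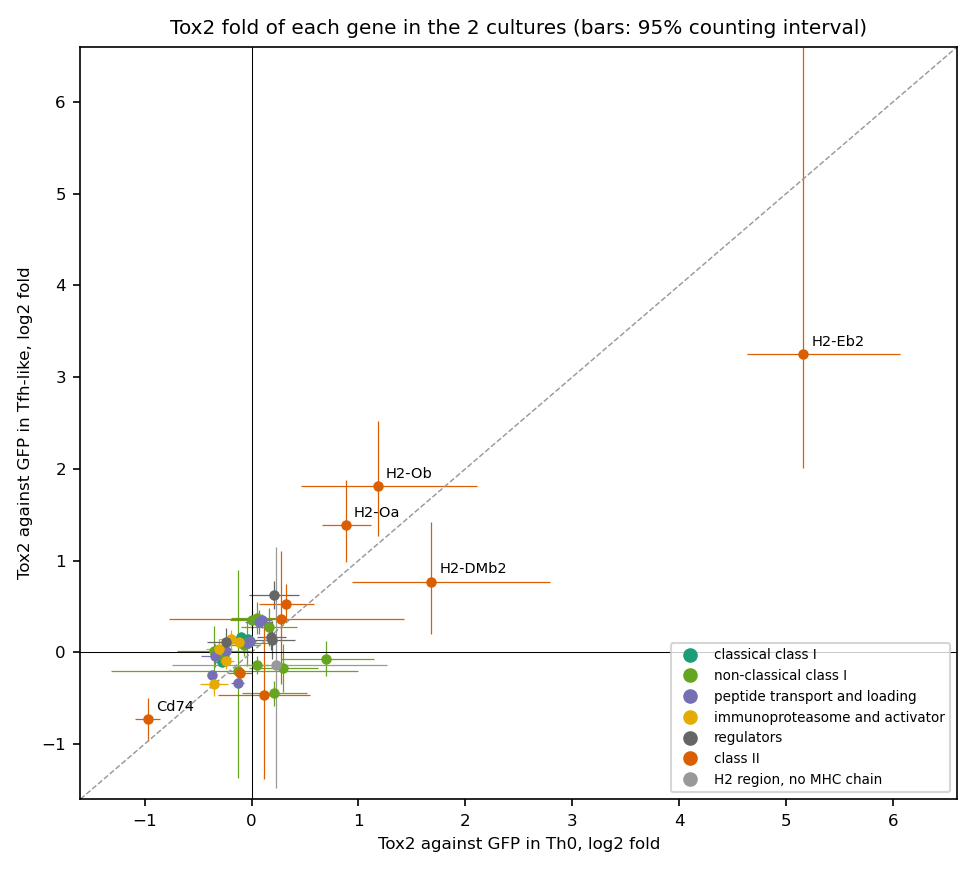
Log2 fold of Tox2 against GFP in Th0 (horizontal) and in Tfh-like (vertical) for each of the 42 genes, with 95% counting intervals, 1 point per gene coloured by role. H2-Eb2 lies far from the rest (5.16 and 3.25, the latter with a library at 0), H2-Oa and H2-Ob are above 0 in both cultures, and Cd74 is below 0 in both (-0.97 and -0.73).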

How the data were processed

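The authors' deposited tables hold, for each of 4 libraries, whole-number read counts per gene and FPKM, per the file headers. Per the submitters' processing notes the build was mm10 and the tools included featureCounts of Subread, Bowtie2, edgeR, MACS2 and Trim Galore 0.4.4, listed without role or order. Not given in the sources used here are the annotation, the strand setting and the treatment of multi-mapping reads. Only genes above a low level were listed: the second-highest library had at least 0.658 CPM and the 4 counts summed to at least 24. The tables held 0 columns of other samples. For a gene at 0 the upper limit is 3 counts (0.219 to 0.23 CPM); intervals and this limit cover counting error only, since the reads carry no molecular identifiers.

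Counts were scaled by TMM (edgeR 4.0.16, limma 3.58.1, R 4.3.3; factors 0.966 to 1.03), and 10960 genes with at least 1 CPM in at least 1 library were fitted with culture and virus as additive terms by edgeR's quasi-likelihood test (1 residual degree of freedom, biological coefficient of variation 0.105). Pairs used a prior count of 2. The deposited FPKM was used for levels between genes and for ratios; it equals the count times 1 factor per library and 1 per gene. Alternatives were DESeq2 1.42.0, other scalings, filters and prior counts, and removal of each library's trend with gene length. The code was tested on simulated data. Shared stretches came from 50-base words of GENCODE vM21 transcripts (GRCm38), which matched 41 of the 42 genes.

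The genes and lists were chosen with earlier results of these data known. Values per library are given for the genes that passed a test, were 2-fold apart in a pair or had 1 of the 6 highest FPKM levels; others are given by range or effect, except Psmb10 and H2-Ke6, added after their values were seen. Genes of the further lists are named when they passed or were 2-fold apart, with examples given in full. Exceptions are Psmb5, Psmb6 and Psmb7, named for the ratios, and Cd1d1, Ctss and Cst3, named for their lower values. Some genes of these lists are counted but not reported by name here.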

Additional observations from a re-analysis of the deposited data

Results flagged for a closer look

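Some genes had folds of opposite sign in the 2 settings in which the same contrast was made, with 1 library per group; the difference was not tested. The log2 fold with Tox2 was -0.10 in Th0 and 0.17 in Tfh-like for H2-D1, a difference of 0.27. It was -0.12 and 0.11 for Psmb8, a difference of 0.23, and -0.19 and 0.14 for Psmb9, a difference of 0.33. For B2m the log2 fold of Tfh-like against Th0 was -0.13 with GFP and 0.06 with Tox2, a difference of 0.19. All 4 are small beside the threshold of 1 on the log2 scale.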

How the results depend on the processing

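No paired analysis was possible because each group is 1 library and the labels give no replicate numbers. No effect that passed and no fold that was 2-fold apart changed sign under the alternatives run. Tox2 values near 0 that were not called did change sign: with the length trend removed the Tox2 effect of H2-Eb1 went from -0.11 to 0.04 and that of Tap1 from 0.04 to -0.01, and the fold in Th0 of H2-Ab1 from -0.11 to 0.05, of H2-K1 from -0.03 to 0.06 and of H2-Q4 from -0.07 to 0.02. With DESeq2's size factors the Tox2 effect of H2-Q4 went from 0.01 to -0.01, also by DESeq2's own test, and the Tfh-like fold of H2-T9 from 0.01 to -0.01. An alternative chosen after seeing the data left out the 21 genes that share over 10% of their 50-base stretches or have no annotation entry. It lowered the members passing for the Tfh-like culture from 20 to 9. Those 2-fold apart between cultures with GFP went from 10 (6 higher, 4 lower) to 4 (1 higher, 3 lower), and with Tox2 from 12 to 6. The list was shorter, and all non-classical class I genes that had risen were among the genes left out. The count of members whose Tox2 fold was 2-fold different between cultures was 0, and became 1 with a prior count of 10 (H2-Eb2, -3.26) and 1 with the length trend removed (H2-DMb2, -1.02). Over the other alternatives run 3 to 4 members passed for Tox2 and 17 to 22 for culture; with a filter of 5 CPM 38 were tested. Over all genes, 746 passed for Tox2, against 1193 with the sum of counts as scaling, 492 by DESeq2 and 418 with the length trend removed; 2656 passed for culture, against 1609 by DESeq2. With the sum of counts as scaling the culture split over all genes was 1500 higher and 1649 lower, against 1564 and 1092. By DESeq2 the culture effects of H2-DMa (adjusted p = 0.112) and H2-T9 (0.17) did not pass. Depth limits H2-DMb1, H2-DMb2, H2-Eb2, H2-Ob, H2-T3 and H2-Ke6, each under 20 counts in at least 1 library.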
